A study of Mus musculus with 8 samples.

Results

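The 10 genes described here are the satellite cell and myogenic regulatory factor genes Pax7, Pax3, Myf5, Myf6, Myod1, Myog, Mymk, Sdc4, Chodl and Cdh15, taken by symbol from 55487 gene identifiers and measured by RNA-seq in skeletal muscle of 8 mice. The mice were male C57BL/6J animals aged 10 weeks, and both hind legs were held in casts for 8 days. During these days each mouse received K14Q MOTS-c, a variant of the mitochondrially encoded microprotein MOTS-c, at 15 mg/kg/day by intraperitoneal injection. All 8 libraries belong to this 1 group, so the values describe immobilized, K14Q MOTS-c-treated muscle, and neither uncasted mice nor mice given wild-type MOTS-c or water were analysed here. The sample labels give vastus lateralis as the tissue and the series design gives gastrocnemius, as do the study's methods, which list gastrocnemius, plantaris and soleus as the muscles taken after casting. The 6 fast fibre markers searched, Myh4 among them, were present in every library and summed to 1442637 to 2951421 normalized counts.

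Satellite cells are the stem cells of skeletal muscle. They lie between the fibre membrane and the basal lamina, and the paired box factor Pax7 marks them in the adult. When they enter the myogenic programme, the basic helix-loop-helix factors Myf5 and Myod1 commit them to the muscle lineage, Myog drives differentiation, and the membrane protein encoded by Mymk lets myoblasts fuse. Myf6, the remaining factor of the same family, is kept by mature fibres, and Myog and Myod1 can also be transcribed in fibre nuclei. These 4 factors bind E-boxes, short motifs of the letters CANNTG, together with E-protein partners such as the product of Tcf3.

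The promoters of Myog and Chodl are shown because they hold the motif that the family binds, and because Myog and Chodl each took part in relations between genes described further on. RefSeq promoter windows on GRCm38.p6 were matched for 6 of the 10 genes, and the 250 bases before the RefSeq start were searched for CANNTG, a motif that reads the same on both strands. Gene positions elsewhere in the text are those of GENCODE, whose starts differ: the windows of Cdh15, Pax7 and Sdc4 lie wholly inside the GENCODE gene, and the last 15 bases of the Myog window, with its second E-box, lie inside it too. The windows of Chodl and Myf5 lie before the gene in both annotations. Myog (chr1:134289754-134290003, plus strand) held 2 E-boxes, CACATG at position -138 and CAGTTG at position -12, counted to the first base of the motif from the RefSeq start. Chodl (chr16:78930698-78930947, plus strand) held 4 and Cdh15 held 3. The windows of Pax7, Myf5 and Sdc4 held none. Of 32851 promoter windows of the same length, 66.2% held at least 1 E-box, 31.8% held 2 or more and 3.84% held 4 or more. Capitals mark the E-boxes.
Myog: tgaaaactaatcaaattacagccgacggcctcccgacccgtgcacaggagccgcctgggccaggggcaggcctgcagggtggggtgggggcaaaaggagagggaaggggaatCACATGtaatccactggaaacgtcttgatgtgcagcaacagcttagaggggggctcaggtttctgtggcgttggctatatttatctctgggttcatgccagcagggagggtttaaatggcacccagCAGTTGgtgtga
Chodl: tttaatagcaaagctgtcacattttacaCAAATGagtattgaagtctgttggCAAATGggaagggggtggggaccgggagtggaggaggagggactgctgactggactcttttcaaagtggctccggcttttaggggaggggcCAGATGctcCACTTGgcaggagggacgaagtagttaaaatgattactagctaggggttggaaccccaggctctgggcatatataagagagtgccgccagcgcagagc

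The libraries held between 23985356 and 33012497 reads on genes, and levels are given as normalized counts, the read count divided by the authors' size factor of the library. Levels of different genes are compared as normalized counts per kilobase of exon, except for Myh8 and Myh4, where the share of counts is given. All 10 genes had reads, and 8 of them had at least 10 reads in every mouse. The exceptions were Pax3, with 0 to 5 reads, and Mymk, with 5 to 48 reads. Of all 55487 identifiers, 31136 had reads and 15135 had at least 10 reads in every mouse. No exonic base of the 10 genes was shared with another gene of the GENCODE annotation used for lengths. In bulk muscle, fewer cells of a type and less RNA per cell cannot be told apart.

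Myf6 was by far the most abundant of the myogenic regulatory factors. The gene (ENSMUSG00000035923, chromosome 10, 107492853 to 107494737 of GRCm38, minus strand, 3 exons) had a lowest value of 4152, a median of 5568 and a highest value of 8127 normalized counts, with a mean of 5657 ± 1373 (SD, n = 8). Mouse 8 was the highest, and mice 5 and 1 were the lowest, at 4152 and 4195. Per kilobase, the mean level of 4479 normalized counts put Myf6 at rank 245 of the 30999 genes with at least 1 read and an annotated length. Within the summed level per kilobase of the 4 factors, Myf6 made up 95.9% ± 1.16 (SD, n = 8), and between 94.4% and 97.4% in the 8 mice.

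Myf5 (ENSMUSG00000000435, chromosome 10, 107482908 to 107486134, minus strand, 3 exons), which acts early in commitment, lies 6718 bases from Myf6 on the same strand. It had only 35.0 to 64.6 normalized counts, with a median of 44.1 and a mean of 45.9 ± 9.99 (SD, n = 8). Mouse 6 was the highest and mouse 1 the lowest. Per kilobase, Myf6 exceeded its neighbour Myf5 by 203-fold on the means, and by 119-fold to 283-fold within single mice. Myf5 made up 0.492% ± 0.150 (SD, n = 8) of the family.

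Myod1 and Myog, with means of 74.8 and 90.7 normalized counts per kilobase, did not have the same order over the mice. Myod1 (ENSMUSG00000009471, chromosome 7, 46376474 to 46379099, plus strand, 3 exons), the commitment factor, ran from 61.5 normalized counts in mouse 3 through a median of 136 to 252 in mouse 7. Mice 1 and 2 followed mouse 7, at 172 and 182, while mice 3, 4 and 5 lay between 61.5 and 91.7. Myog (ENSMUSG00000026459, chromosome 1, 134289989 to 134292548, plus strand, 3 exons), the differentiation factor, ran from 60.5 in mouse 2 through a median of 137 to 214 in mouse 4. Mice 8, 6 and 7 followed mouse 4, at 196, 166 and 159, and mice 2 and 3 were the lowest. The means were 139 ± 62.2 for Myod1 and 136 ± 56.4 for Myog (SD, n = 8).

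The ratio of Myog to Myod1 per kilobase ran from 0.415 in mouse 2 to 3.24 in mouse 4, with a median of 1.39. It was above 1 in 5 of the 8 mice and below it in mice 1, 2 and 7. Of the family's summed level, Myog made up 1.95% ± 0.671 and Myod1 1.67% ± 0.783 (SD, n = 8).

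Pax7 and Pax3, the paired box factors of satellite cells and their embryonic precursors, differed widely in level, with Pax7 close to the median of all detected genes and Pax3 near the lower end of detection. Pax7 (ENSMUSG00000028736, chromosome 4, 139737062 to 139833528, minus strand) had 27.5 to 65.9 normalized counts with a median of 45.3 and a mean of 45.1 ± 12.2 (SD, n = 8). Mouse 2 was the highest, and mice 4 and 3 were the lowest, at 27.5 and 31.6. Counting error alone accounts for 30.8% of the variance of Pax7 between mice and for 46.6% of that of Myf5, because the 8 libraries together gave 355 and 365 reads for these genes. Pax3 (ENSMUSG00000004872, chromosome 1, 78101267 to 78197134, minus strand) had 19 reads in all, a median of 2.20 and a highest value of 5.47 normalized counts in mouse 8. Mouse 3 had 0 reads, which allows up to 2.49 normalized counts (the value of 3 reads, counting error only), so the differences between mice in Pax3 were not detectable at this depth.

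Mymk (ENSMUSG00000009214, chromosome 2, 27061636 to 27072179, minus strand), which encodes the fusion protein myomaker, had the highest coefficient of variation of the 10 genes with all 8 mice (64.9%), a place that rests on mouse 6. It ran from 5.40 normalized counts in mouse 2 through a median of 17.8 to 47.0 in mouse 6, with a mean of 19.5 ± 12.6 (SD, n = 8). Mouse 6 stood apart from the others, of which mouse 4 came next with 24.2. Without mouse 6 the mean was 15.6 and the coefficient of variation 41.9%, below the 48.4% of Myod1 and the 45.3% of Myog in the same 7 mice.

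Among the 3 genes of surface proteins, Sdc4 and Cdh15 had mean levels of 433 and 305 normalized counts per kilobase, and Chodl had 54.8. Sdc4 (ENSMUSG00000017009, chromosome 2, 164424247 to 164443887, minus strand) encodes syndecan-4, a heparan sulphate proteoglycan of satellite cells that many other cells carry too. It ran from 706 normalized counts in mouse 1 through a median of 1114 to 1554 in mouse 7, with a mean of 1103 ± 309 (SD, n = 8). Mice 7 and 8 were high, and mice 1 and 2 were low, at 706 and 748.

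Cdh15 (ENSMUSG00000031962, chromosome 8, 122847966 to 122867397, plus strand, 14 exons) encodes M-cadherin, the adhesion protein of satellite cells and myoblasts. It had 759 to 1217 normalized counts with a median of 964 and a mean of 993 ± 168 (SD, n = 8), with a coefficient of variation of 17.0%, the smallest of the 10 genes with all 8 mice. Without mouse 6 that of Myf5 was smaller, at 16.3% against 17.8%. Mice 4 and 3 were the highest, at 1217 and 1198, and mouse 8 was the lowest. Chodl (ENSMUSG00000022860, chromosome 16, 78930948 to 78951733, plus strand) encodes chondrolectin, a C-type lectin membrane protein. It ran from 206 in mouse 7 through a median of 294 to 386 in mouse 1, with a mean of 301 ± 64.5 (SD, n = 8). Its high mice, 1 and 2, were the low mice of Sdc4.

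**Figure D1:**
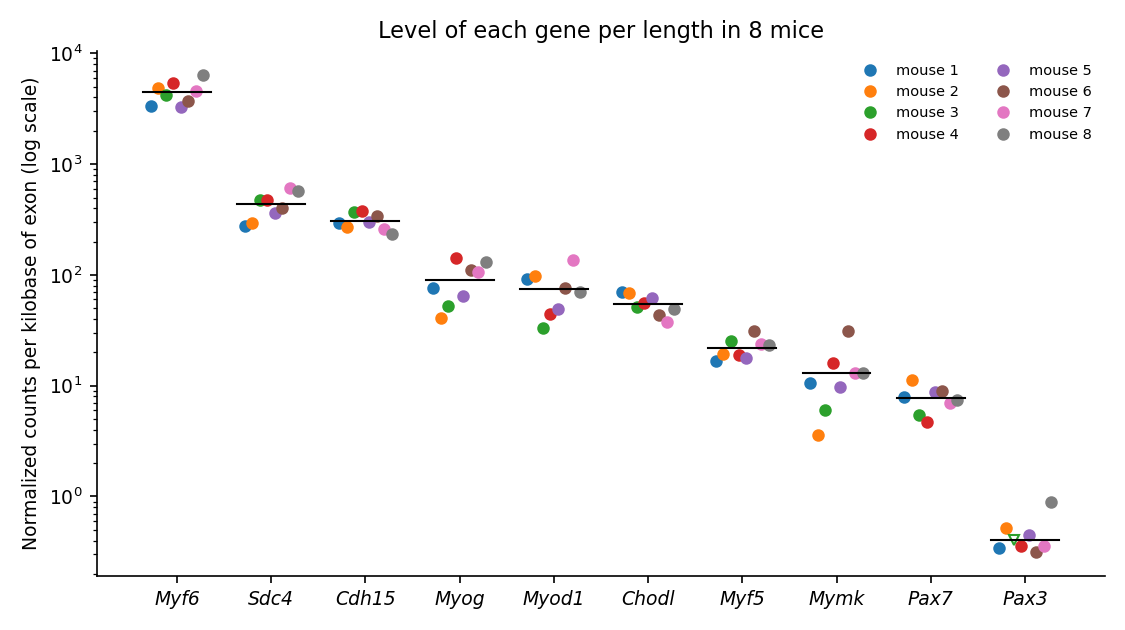
Normalized counts per kilobase of exon (log axis) of the 10 genes, ordered by mean; each dot is 1 mouse, the black line is the mean of 8 mice, and the open triangle marks the mouse with 0 reads of Pax3, drawn at the value of 3 reads. Myf6 sits at a mean of 4479, Sdc4 at 433 and Cdh15 at 305, and the means of the other genes lie below 100.

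The order of levels per kilobase was Myf6 (4479), Sdc4 (433), Cdh15 (305), Myog (90.7), Myod1 (74.8), Chodl (54.8), Myf5 (22.0), Mymk (12.9), Pax7 (7.69) and Pax3 (0.403), as the plot of levels per length shows. The median over all detected genes was 8.64 normalized counts per kilobase, so Pax7 lay just under it. Each neighbour was compared with the next within the same mouse on the scale of log2(normalized count + 1) less log2 of the exon length. An exact two-sided permutation test over sign flips was used, with Benjamini-Hochberg adjustment over the 9 pairs.

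Of the 9 neighbouring pairs, 6 differed beyond the spread over mice. Myf6 exceeded Sdc4 by 3.39 ± 0.35 on the log2 scale (SD, n = 8), in 8 of 8 mice (adjusted exact permutation p = 0.018). Sdc4 exceeded Cdh15 by 0.47 ± 0.50 in 7 of 8 mice (adjusted exact permutation p = 0.023). Cdh15 exceeded Myog by 1.84 ± 0.70 (adjusted exact permutation p = 0.018). Lower in the order, Chodl lay above Myf5 by 1.29 ± 0.58 and Pax7 above Pax3 by 3.90 ± 0.67, each in 8 of 8 mice (adjusted exact permutation p = 0.018 for each). With the longest transcript as the length these differences were 2.40 and 3.22, and the size of the second is uncertain because Pax3 had 0 to 5 reads. Myf5 exceeded Mymk by 0.93 ± 0.78 in 7 of 8 mice (adjusted exact permutation p = 0.023). The smallest unadjusted p this design can give is 0.0078.

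The remaining 3 pairs of neighbours did not pass the test. Myog and Myod1 differed by 0.29 ± 0.89 on the log2 scale, with Myog higher in 5 of 8 mice (adjusted exact permutation p = 0.39), and by 0.089 without mouse 4 and 0.51 without mouse 2. Mymk and Pax7 differed by 0.61 ± 1.03 (adjusted exact permutation p = 0.18), and this pair passed without mouse 2, at 0.90 (adjusted exact permutation p = 0.028). Myod1 and Chodl differed by 0.35 ± 0.79 (adjusted exact permutation p = 0.29), and by 0.14 without mouse 7. That direction depends on the length: with the longest transcript of Chodl, 2535 bases, in place of all its exons together, 5491 bases, Chodl rose to 119 normalized counts per kilobase and Myod1 lay below it by -0.76 on the log2 scale (adjusted exact permutation p = 0.060). Chodl then ranked above Myog and Myod1.

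All 9 members with a mean of at least 10 reads varied between mice by more than counting error, which was called where the variance of the reads exceeded the 95% point of the chi-square distribution, 2.01 times the Poisson variance. The same held for 79.4% of all 16498 genes tested, so this count is near the background. Myf5 was no longer past the limit when mouse 1, 5 or 6 was left out, at 2.02, 2.09 and 1.19 times the Poisson variance against a limit of 2.10, which left 8 members. The variance ran from 2.20 times that of counting for Myf5 to 323 times for Myf6, a ratio that grows with the number of reads, 365 and 44238 over the 8 libraries. The ratio of Myf6 was 190 without mouse 8 and that of Mymk, 8.43 with all mice, was 2.69 without mouse 6.

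The coefficient of variation of the 9 genes had a median of 27.2%, beside 16.5% over all genes tested. With all 8 mice Mymk (64.9%, or 41.9% without mouse 6), Myod1 (44.7%) and Myog (41.6%) had the widest spread, and Cdh15 (17.0%), Chodl (21.5%) and Myf5 (21.8%) the narrowest. Since the coefficient falls with level, the dispersion estimated by edgeR was also set against its trend over mean level. It was 3.43 times the trend for Myod1, 3.22 times for Mymk, 3.17 times for Myog, 2.19 times for Sdc4 and 1.55 times for Myf6. Pax7, at 0.991 times, and Myf5, at 0.688 times, lay under the trend. Over all genes the median was 0.747 times, and 29.3% of them lay above the trend against 7 of the 9 members, a difference that was not tested.

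**Figure D2:**
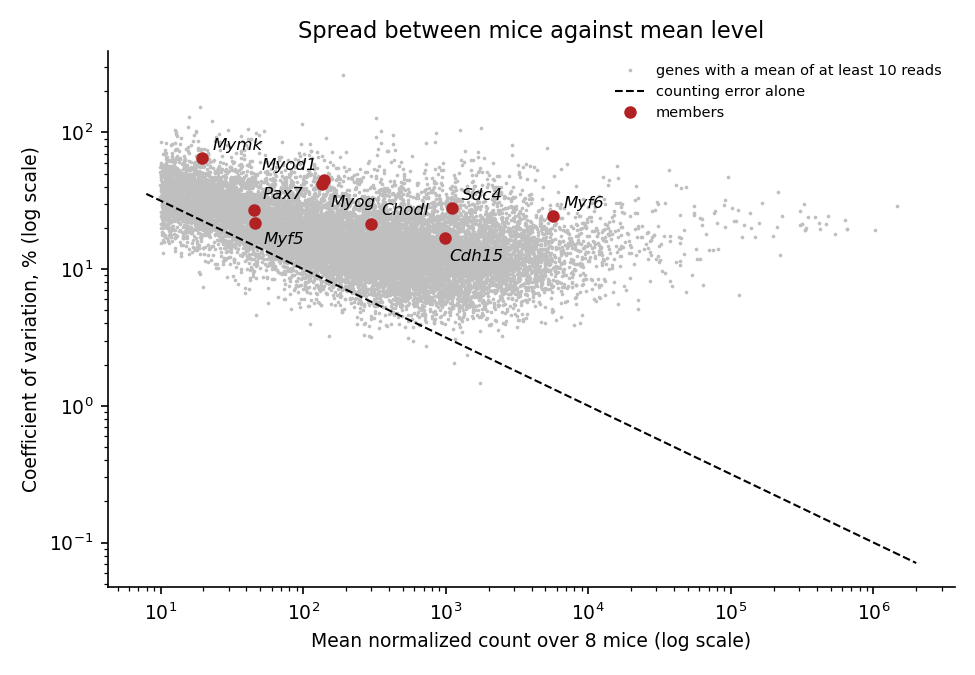
Coefficient of variation between the 8 mice against the mean normalized count (both log axes) for all genes with a mean of at least 10 reads in grey and the 9 members that pass in red; the dashed line is the spread that counting error alone would give. Mymk (64.9%), Myod1 (44.7%) and Myog (41.6%) lie highest among the members, and Pax7 and Myf5 lie closest to the line.

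Whether the members moved together was examined over the 8 mice. Of the 28 pairs among the 8 genes with at least 10 reads in every mouse, 2 had an unadjusted exact permutation p under 0.05 and 0 passed after Benjamini-Hochberg adjustment, by Pearson's r or by Spearman's rho. The map of deviations shows the pattern behind these pairs. Mice 1 and 2 were high in Chodl, at 0.39 and 0.36 above its mean on the log2 scale, and low in Sdc4, at -0.59 and -0.51, whereas mouse 7 was low in Chodl (-0.51) and high in Sdc4 (0.55).

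**Figure D3:**
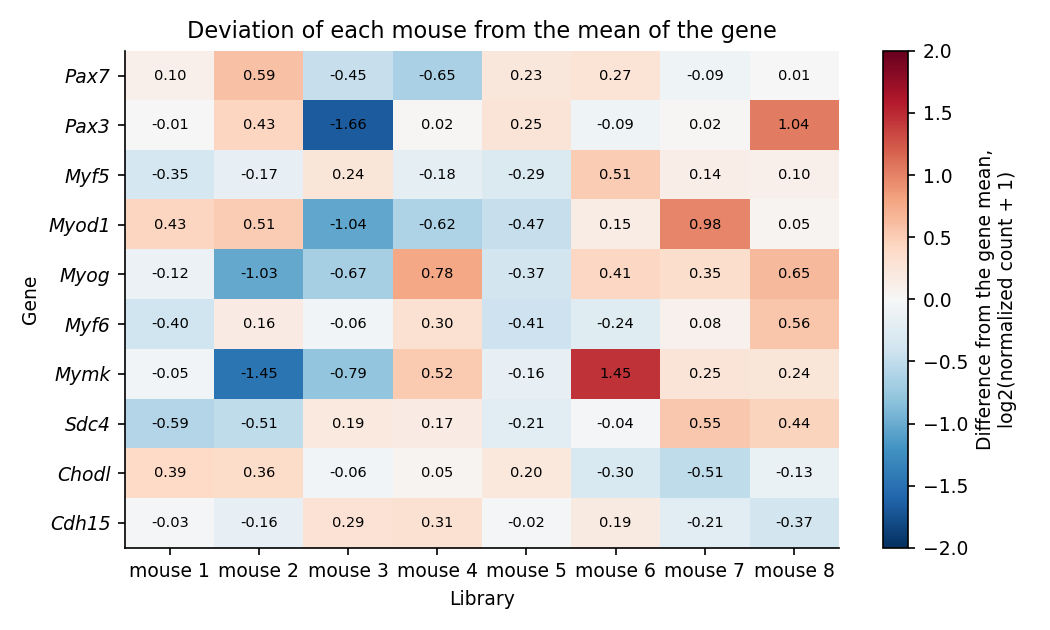
Difference of each mouse from the mean of the gene on the scale of log2(normalized count + 1), with genes in rows and the 8 mice in columns; red is above and blue below the gene's mean. Mymk and Myog are low together in mice 2 and 3 and high together in mice 4, 6, 7 and 8, and Sdc4 and Chodl run opposite to each other in mice 1, 2 and 7.

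Sdc4 and Chodl ran in opposite directions, short of the threshold after adjustment, with r = -0.85 (exact permutation p = 0.0093, 0.26 after adjustment) and a Spearman's rho of -0.86 (exact permutation p = 0.011, 0.30 after adjustment). Once the 2 mice most distant from the median of Sdc4 were removed, r was -0.64. The pair passed when mouse 6 was left out (r = -0.94, adjusted exact permutation p = 0.011), and r weakened to -0.54 when libraries were scaled by their totals (adjusted exact permutation p = 0.57). Myf5 and Chodl gave r = -0.79 (exact permutation p = 0.021, 0.30 after adjustment), a Spearman's rho of -0.81 (exact permutation p = 0.022, 0.30 after adjustment) and r = -0.72 once the 2 mice most distant from the median of Myf5 were removed, and r was -0.43 with library totals. The weakest relation of the 28 was that of Myog and Cdh15, with r = -0.0058.

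Myog and Mymk, the differentiation factor and the fusion gene, had similar profiles over the mice, a relation that did not pass after adjustment with all 8 mice. Mymk was under 10 reads in 1 mouse, so the pair stands among all 45 pairs of the 10 genes. It gave r = 0.84 (exact permutation p = 0.0056, 0.21 after adjustment) and a Spearman's rho of 0.88 (exact permutation p = 0.0072, 0.24 after adjustment), and r = 0.53 once the 2 mice most distant from the median of Myog were removed. Mouse 2 held the lowest value of each gene, mouse 3 the next lowest, and mouse 6 lay above the line of the others in Mymk. Without mouse 6, r was 0.94 (adjusted exact permutation p = 0.0089). With library totals r was 0.85. Of the 45 pairs, 4 had an unadjusted exact permutation p under 0.05 and 0 passed after adjustment. No relation of Myog and Myod1 was detected over the mice, with r = 0.078 (exact permutation p = 0.85) and a Spearman's rho of -0.14 (exact permutation p = 0.75). Once the 2 mice most distant from the median of Myod1 were removed, r was -0.50.

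**Figure D4:**
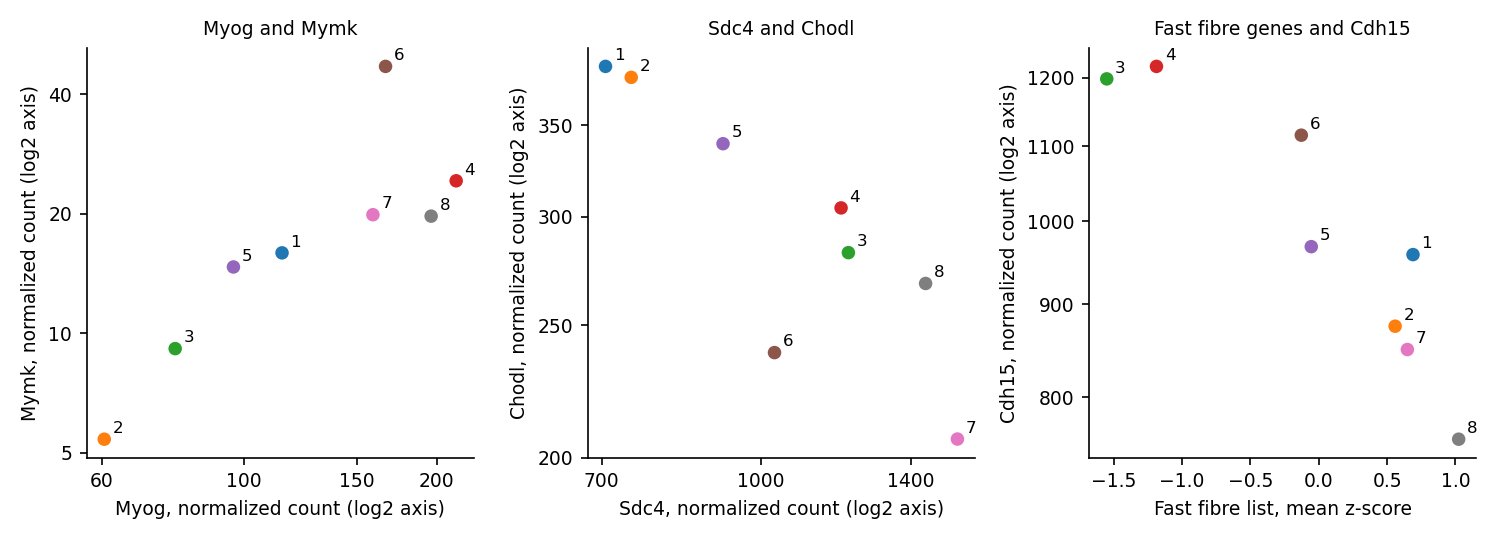
Normalized counts of Mymk against Myog, of Chodl against Sdc4 and of Cdh15 against the mean z-score of 6 fast fibre genes, with each dot 1 mouse labelled by its number and gene axes on a log2 scale. Mymk is high where Myog is high (r = 0.84), Chodl is low where Sdc4 is high (r = -0.85) and Cdh15 is low where fast fibre genes are high (r = -0.91), none of which passed after adjustment over its family with all 8 mice.

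The other genes of the pathway were present at widely different levels. All 10 partners of the factors had at least 10 reads in every mouse. They were led per kilobase by Mef2c, a co-activator of the family, with 12591 to 28756 normalized counts. Their median coefficient of variation was 10.1%, below that of the members. Of the 8 inhibitors of the factors, 6 had at least 10 reads in every mouse, with the repressor Zeb1 the most abundant per kilobase (1860 ± 218 normalized counts, SD, n = 8) and Mdfi the least (4 reads in its lowest mouse).

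Other satellite cell surface and signalling genes were nearly all detected, 12 of 13 with at least 10 reads in every mouse. Itgb1, an integrin chain of many cell types, was the highest per kilobase, at 5958 to 8085 normalized counts. Calcr, the calcitonin receptor of quiescent satellite cells, was the lowest, at 1.10 to 8.49. Of the Notch pathway, which keeps satellite cells quiescent, 9 of 9 genes passed 10 reads in every mouse. Hes1 was the highest of them per kilobase, at 154 to 403 normalized counts, and Dll1 the lowest per kilobase, at 61.4 to 131. Of 8 fusion genes other than Mymk, 5 passed, with Jam2 the highest per kilobase and Adgrb3 the lowest, at 0 to 5.40 normalized counts. Of 6 cell cycle genes (Mki67, Top2a, Ccnb1, Cdk1, Ccna2 and Birc5), 1 had at least 10 reads in every mouse, and their summed level was 34.1 to 117 normalized counts. Mki67, the highest of them per kilobase, had 13.1 to 53.9, and Cdk1, the lowest, had 0 to 8.25.

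Genes of developing fibres were all detected, 5 of 5 with at least 10 reads in every mouse. The highest value belonged to Myh8, the neonatal myosin heavy chain, with 60704 to 142980 normalized counts. That value stayed between 6.53% and 7.23% of the normalized count of Myh4, without division by length, the abundant fast myosin of the same gene cluster and of similar sequence, in all 8 mice. How the authors' counting divided reads between them is not given in the sources used here, so the level of Myh8 is uncertain. Myh3, the embryonic chain, had 1126 to 1993 normalized counts, and Tnnt2, the lowest of the list per kilobase, had 94.7 to 272.

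Genes of the neuromuscular junction and of the denervation response include acetylcholine receptor subunits that Myog is known to activate. Of 13 such genes, 12 had at least 10 reads in every mouse. Gadd45a was the highest per kilobase, at 2303 to 10551 normalized counts, and Chrng, the fetal receptor subunit, the lowest, at 2.49 to 11.0. Chrna1, chosen after its values were seen, was highest in mouse 4 (1886 normalized counts), which also had the highest Myog (214). It was lowest in mouse 5 (866), with mice 3 and 2 close to that, at 868 and 877. Against the mean z-score of the list, Myog gave r = 0.57 (exact permutation p = 0.14, 0.52 after adjustment over 170 relations) and a Spearman's rho of 0.74 (exact permutation p = 0.046, 0.46 after adjustment), and r = 0.31 once the 2 most distant mice were removed. Leaving out mouse 4 also gave r = 0.31.

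Each of the 10 genes was set against the mean z-score of each of 17 lists, the 8 of the pathway and 9 of fibre types and other cells. The relations described were chosen after their values were seen, and the 2 most distant mice are those farthest from the median of the list score. Of the 170 relations, 19 had an unadjusted exact permutation p under 0.05 by Pearson's r and 17 by Spearman's rho, and 0 passed after adjustment. The smallest adjusted p was that of Cdh15 and the fast fibre genes, with r = -0.91 (exact permutation p = 0.00060, 0.10 after adjustment), a Spearman's rho of -0.90 (exact permutation p = 0.0046, 0.30 after adjustment) and r = -0.87 once the 2 most distant mice were removed. Mice 3 and 4, highest in Cdh15, were lowest in the fast fibre score, at -1.55 and -1.19, and mouse 8 was the highest, at 1.02. Myod1 had the opposite sign, with r = 0.83 to the same list (exact permutation p = 0.011, 0.23 after adjustment), a Spearman's rho of 0.64 (exact permutation p = 0.096, 0.53 after adjustment) and r = 0.47 once the 2 most distant mice were removed.

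Myog and the slow fibre genes gave r = 0.25 (exact permutation p = 0.54, 0.80 after adjustment), a Spearman's rho of 0.19 (exact permutation p = 0.66) and r = 0.19 once the 2 most distant mice were removed. Leaving out mouse 2, 3 or 8 lowered r to 0.061, 0.062 and 0.083, and leaving out mouse 4 raised it to 0.57. Pax7 gave r = 0.19 to the other satellite cell genes (exact permutation p = 0.65, 0.88 after adjustment), with a Spearman's rho of 0.40 (exact permutation p = 0.33) and r = 0.27 once the 2 most distant mice were removed. To the cell cycle genes Pax7 gave r = 0.11 (exact permutation p = 0.79, 0.92 after adjustment), with a Spearman's rho of 0.071 (exact permutation p = 0.88) and r = -0.52 once the 2 most distant mice were removed. Neither of these relations of Pax7 kept its sign when libraries were scaled by their totals.

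Markers of other cell types had unadjusted relations to some members, none of which passed after adjustment. Sdc4 against the endothelial score gave r = -0.85 (exact permutation p = 0.0086, 0.23 after adjustment), a Spearman's rho of -0.76 (exact permutation p = 0.037, 0.46 after adjustment) and r = -0.76 once the 2 most distant mice were removed. Against the fibroblast score it gave r = -0.84 (exact permutation p = 0.010, 0.23 after adjustment), a Spearman's rho of -0.88 (exact permutation p = 0.0072, 0.30 after adjustment) and r = -0.76 once the 2 most distant mice were removed. With library totals these fell to -0.51 and -0.56. Myog against the adipocyte score gave r = -0.87 (exact permutation p = 0.0080, 0.23 after adjustment), a Spearman's rho of -0.86 (exact permutation p = 0.011, 0.30 after adjustment) and r = -0.93 once the 2 most distant mice were removed.

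The marker lists themselves were present in every mouse, and none of their genes was at 0 in all libraries. Summed normalized counts ran from 3401 to 5599 over the 6 endothelial markers, from 10294 to 19186 over the 8 fibroblast markers and from 516 to 1898 over the 4 adipocyte markers, which were lowest in mouse 8 and highest in mouse 2 in each case. Macrophage markers (8 genes) summed to 1746 to 4373, mural cell markers (5) to 7299 to 12116, Schwann cell markers (6) to 2466 to 5541 and blood genes (3) to 4032 to 15971. The 6 slow fibre genes summed to 7201 to 17123. Against the other satellite cell genes, Chodl gave r = 0.83 (exact permutation p = 0.012, 0.23 after adjustment) and Sdc4 gave r = -0.83 (exact permutation p = 0.012, 0.23 after adjustment), and once the 2 most distant mice were removed r was 0.98 and -0.68. The Spearman values were 0.90 (exact permutation p = 0.0046, 0.30 after adjustment) and -0.88 (exact permutation p = 0.0072, 0.30 after adjustment). Chodl also gave r = 0.83 to the endothelial score (exact permutation p = 0.013, 0.23 after adjustment), a Spearman's rho of 0.86 (exact permutation p = 0.011, 0.30 after adjustment) and r = 0.91 once the 2 most distant mice were removed. Myog gave r = -0.83 to the same score (exact permutation p = 0.013, 0.23 after adjustment), a Spearman's rho of -0.76 (exact permutation p = 0.037, 0.46 after adjustment) and r = -0.65 once the 2 most distant mice were removed. The scores of the other satellite cell genes, endothelium, fibroblasts and adipocytes were each highest in mouse 2 and lowest in mouse 8. In mouse 2 they were 0.425, 1.44, 1.02 and 0.909, and in mouse 8 -0.660, -1.34, -1.20 and -1.54. Relations to these scores therefore overlap and are not separate results. The part of other cell types in the levels of Sdc4, Chodl and Myog was not tested.

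By Pearson's r over the 8 mice, the genes most like each member among 15134 others with at least 10 reads in every library are given as a description for the 8 members that had as many. For Myf6 they were Ppp1r27 (r = 0.98), Ppp1r12a (r = 0.97) and 4930539J05Rik (r = 0.96). For Myog they were Gm43738 (r = 0.98), St13 (r = 0.95) and Gm14964 (r = 0.94), and for Myod1 Foxo6 (r = 0.97), mt-Ti (r = 0.96) and Pde4a (r = 0.96). Pax7 was nearest to Gm49492 (r = 0.97), Sdccag8 (r = 0.94) and Gm36936 (r = 0.92), and Myf5 to 2310068J16Rik (r = 0.96), Dynlt1-ps1 (r = 0.94) and Ost4 (r = 0.93). Among the surface proteins, Sdc4 was nearest to Rnf19b (r = 0.99), Gm11451 (r = 0.98) and Uxt (r = 0.98), Chodl to Trpm7 (r = 0.99), Prkci (r = 0.97) and Rbm33 (r = 0.97), and Cdh15 to Zfp9 (r = 0.98), Trpc4ap (r = 0.97) and Ncln (r = 0.97). No member was among the 3 genes most like another member, which says little with 3 places among 15134 genes. Each r is among the highest of 15134, so its size partly reflects that choice. These values share their libraries and scaling and were not tested.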

How the data were processed

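Poly-adenylated RNA of 8 muscles was sequenced. The submitters' processing notes name fastp, FastQC and STAR, and the study's methods give FastQC for read quality, mapping to GRCm38 with STAR, counting per gene with summarizeOverlaps and testing with DESeq2. Annotation release, strand use and the handling of multi-mapping reads are not given in the sources used here. The deposited signal is a normalized count: dividing each library by its smallest step returned whole reads (within 0.01 of a read) for 100% of values, and the steps correspond to size factors of 0.906 to 1.20. Which tool gave these factors is not given in the sources used here. The recovered reads gave the depth and the spread test.

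Lengths and positions came from GENCODE M21, which held 55141 of the 55487 identifiers. A pseudocount of 1 was used. Permutation tests were exact (40320 pairings) and scripts were tested on simulated data. The rule for named genes was all members, the highest and lowest gene of each pathway list per kilobase, and the 3 nearest genes by r; Myh3, Myh4, Chrna1, Mymx and the list relations described were chosen after their values were seen. One gene that the rule names is not reported here. Members and lists were chosen with earlier results of these data known. No 2 libraries repeated each other (chi-square per degree of freedom of 13.6 or more over 28 pairs). Replicates are single mice per the series design, and p-values measure the spread between these samples. Alternatives were TMM factors (edgeR 4.0.16), library totals, a pseudocount of 5, other read minimums and lengths, the median, and leaving out each mouse. Python 3.11.15, scipy 1.17.1 and R 4.3.3 were used.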

Additional observations from a re-analysis of the deposited data

Results flagged for a closer look

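Of 32 values examined for a mouse far from the others by Dixon's gap at the 95% level, 2 were past the limit, where chance gives about 1.6. Mymk in mouse 6, at 47.0 normalized counts (48 reads), stood above the other mice, which had 5.40 to 24.2, with a gap of 0.548 of the range. The Schwann cell score was 1.64 in mouse 7 against -0.892 to 0.246 in the others, with a gap of 0.550 of the range. Mouse 7 also held the highest Myod1 (252) and Sdc4 (1554) and the lowest Chodl (206), but over the 8 mice the Schwann cell score gave r = 0.54 to Myod1 (exact permutation p = 0.17, 0.55 after adjustment over 170 relations), r = 0.26 to Sdc4 (exact permutation p = 0.56, 0.81 after adjustment) and r = -0.47 to Chodl (exact permutation p = 0.24, 0.64 after adjustment). The Spearman values were 0.40 (exact permutation p = 0.33), 0.19 (exact permutation p = 0.66) and -0.19 (exact permutation p = 0.66). Once the 2 mice most distant from the median score were removed, r was -0.098, -0.64 and 0.43.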

How the results depend on the processing

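Of 428 recomputed values, 419 kept their direction and their call or, for levels and counts, stayed within 1 SD or 1.5 times. No relation passed with all mice, so one that weakened is counted as keeping its call. With library totals r of Sdc4 and Chodl went from -0.85 to -0.54 and that of Myf5 and Chodl from -0.79 to -0.43. The tally therefore does not measure how stable the size of r was. All 110 recomputed mean levels moved by less than 1 SD. Leaving out a mouse or taking the median cannot move a mean by 1 SD. Only the TMM factors and the library totals could therefore have given another outcome. The exceptions among the 428 values were as follows. The difference of Myod1 and Chodl turned to -0.76 with the longest transcript. With library totals, r of Pax7 turned to -0.18 with the other satellite cell genes and to -0.083 with the cell cycle genes; without a mouse these ran from -0.079 (mouse 2) to 0.40 and from -0.23 (mouse 3) to 0.39. The count of member pairs that passed, 0 of 28 with all mice, ran from 0 to 1 when a mouse was left out, the 1 being Sdc4 and Chodl without mouse 6. Mymk and Pax7 separated without mouse 2, and Myog and Mymk passed without mouse 6, an analysis added after seeing the data. Neighbouring pairs that passed ran from 6 to 7 of 9 without a mouse. Members past the counting-error limit ran from 8 to 9. The share of Myf6 ran from 95.7% to 96.1%. The cause of these changes was not tested, save that of the longest transcript, which changes only the length. No paired analysis between groups was possible because only 1 group was analysed here. Depth limits Pax3 and, less so, Mymk, Pax7 and Myf5.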

Other observations

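Mymx, which encodes the microprotein myomixer that acts with myomaker in fusion, was chosen after its values were seen. It varied more than any other gene of the lists, with 4.59 normalized counts in mouse 5, 7.43 in mouse 1, 8.65 in mouse 2, 30.8 in mouse 4, 33.3 in mouse 6, 73.1 in mouse 3, 128 in mouse 8 and 137 in mouse 7. Its coefficient of variation was 102% around a mean of 52.8. Mouse 6, the highest in Mymk (47.0), had 33.3 of Mymx and mouse 3, among the lowest in Mymk (9.14), had 73.1, while mice 7 and 8, the highest in Mymx, had 19.9 and 19.7 of Mymk, above its median. A relation between these genes was not tested.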
